A study of Mus musculus with 22 samples.

Results

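The 22 arrays of this study carry numbers in their titles, and these numbers split them into an earlier block (arrays 1 to 11) and a later block (arrays 12 to 22). The block difference of a gene is its value on arrays 12 to 22 minus its value on arrays 1 to 11, fitted over all 22 of 22 arrays with the 4 genotype-by-treatment groups as terms. The labels do not say what the number stands for (an animal, a sample or an order of handling), so it is called the array number here. The arrays measured RNA from the hypothalamus of male C57bl6 mice, 9 to 12 weeks old and housed singly, that were either deficient in interleukin-6 (IL-6 KO) or wild-type (WT) littermates. Each mouse was given 1 intraperitoneal injection of lipopolysaccharide (LPS) from E. coli at 120 µg/kg, or saline, and was killed 3 h later and perfused with saline. The study asked which genes respond differently to LPS without IL-6, a cytokine that fever requires.

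The earlier block held 5 WT LPS, 3 WT saline, 2 KO LPS and 1 KO saline arrays. The later block held 2 WT LPS, 1 WT saline, 5 KO LPS and 3 KO saline arrays. Thus 8 of the 11 WT arrays were in the earlier block and 8 of the 11 KO arrays in the later one, while LPS and saline arrays were spread evenly, with 7 LPS and 4 saline arrays in each. The labels do not say whether every array came from a different mouse, and the p-values cover only the differences among arrays.

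Hypothalamic tissue holds neurons, astrocytes, oligodendrocytes, microglia and vessels, and a dissected piece can carry meninges, choroid plexus or pituitary with it. All of these cells run the same basic machinery: splicing factors process transcripts, ribosomes make protein, the proteasome degrades it, and mitochondria make ATP by oxidative phosphorylation. The hypothalamus also houses the circadian clock, in which transcription factors drive the genes of their own repressors, so that the transcripts of Per1, Per2 and Nr1d1 change with the time of day.

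Each value is a log2 difference from the median of that probe set over the 22 arrays, so the data hold differences between arrays, and 0 marks the median array. Single-precision rounding still showed the range in which uncentred values lay, and 3600 of the 19935 genes tested had a level of 8 or more on the log2 scale. By that measure 15 of 16 astrocyte markers, 14 of 16 neuronal markers and 8 of 24 hypothalamic neuropeptides were at a level of 8 or more, against 1 of 1027 olfactory receptors and 0 of 10 pituitary markers. Il6 itself ranged from -0.01 to 0.61 on the KO LPS arrays and from -0.10 to 0.28 on the WT LPS arrays. The arrays labelled KO were therefore not lower for Il6, and whether its probes lie in the deleted part is not stated in the labels used here. The highest correlation between 2 arrays over all genes was 0.601, and no arrays were identical.

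Some arrays stood apart. On the first principal component of the deviations from group means, which held 28.3% of their variance, KO LPS arrays 1 and 4 were lowest at -18.2 and -13.3, and the other 20 arrays lay between -8.87 and 12.8. The blocks overlapped on this component. Each group mean was subtracted first, which moves arrays in the smaller block of their group further out in genes with a block difference. Arrays 1 and 4 are such arrays. The others are arrays 7, 12, 17 and 19, which lay at -2.08, 3.81, 10.4 and 11.8. Why arrays 1 and 4 were lowest was not tested. No group mean was subtracted for the medians over the genes called higher below, which the block contrast itself chose. These medians were -0.18 and -0.13 on arrays 1 and 4, beside -0.14 on array 3 and -0.20 on array 10. Ttr, the transthyretin gene of the choroid plexus, was above 2 on arrays 3, 6 and 10 (2.43, 4.62 and 2.80), and Gh, the growth hormone gene of the pituitary, was above 2 on arrays 13, 14 and 16 (3.96, 3.76 and 2.20). Array 13 is a KO saline array, array 6 is WT saline, arrays 3 and 10 are WT LPS, and arrays 14 and 16 are KO LPS. Counts over the main gene lists are also given without them.

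The array block changed a large share of the genes measured, by small amounts. Of 19935 genes, 4286 (21.5%) passed an adjusted p of 0.05 in limma, which is the threshold for a call throughout; 2167 (10.9%) were higher and 2119 (10.6%) lower in the later block. The called differences had a median size of 0.18 (log2) and a largest size of 0.82. A total of 1557 exceeded 0.2 and 13 exceeded 0.5. Of the called genes, 82.9% had the same sign in all 4 groups, against 30.4% of all genes, a share that being called raises by itself. In 106 genes (0.532%) every later array lay above every earlier one, and in 130 genes (0.652%) every later array lay below. Without arrays 1 and 4, an alternative chosen after seeing the data that leaves the KO LPS group with no earlier array, 589 genes were higher and 1017 lower. Without the 6 arrays with high Ttr or Gh, 1502 were higher and 1824 lower.

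On most arrays these genes were on the side of their block, and 2 arrays lay between. Over the 2167 genes called higher, the median value was between -0.20 and -0.05 on 10 of the 11 earlier arrays and between 0.05 and 0.19 on 10 of the 11 later ones. The exceptions were array 7, the only KO saline array of the earlier block, at 0.02, and array 12, the first array of the later block and a WT LPS array, at 0.01. Over the 2119 genes called lower, array 7 was placed among the earlier arrays at 0.10, but array 12 was again in the middle at -0.01, where the other later arrays ran from -0.13 to -0.07. In 312 genes called higher a single later array lay inside the range of the earlier block, and in 222 of them this was array 12; among genes called lower it was array 12 in 258 of 340. These genes were chosen by the same contrast, so the positions are a description. With array 12 left out, 2152 genes were higher and 2302 lower, and with array 7 left out, 2395 and 2064.

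**Figure D1:**
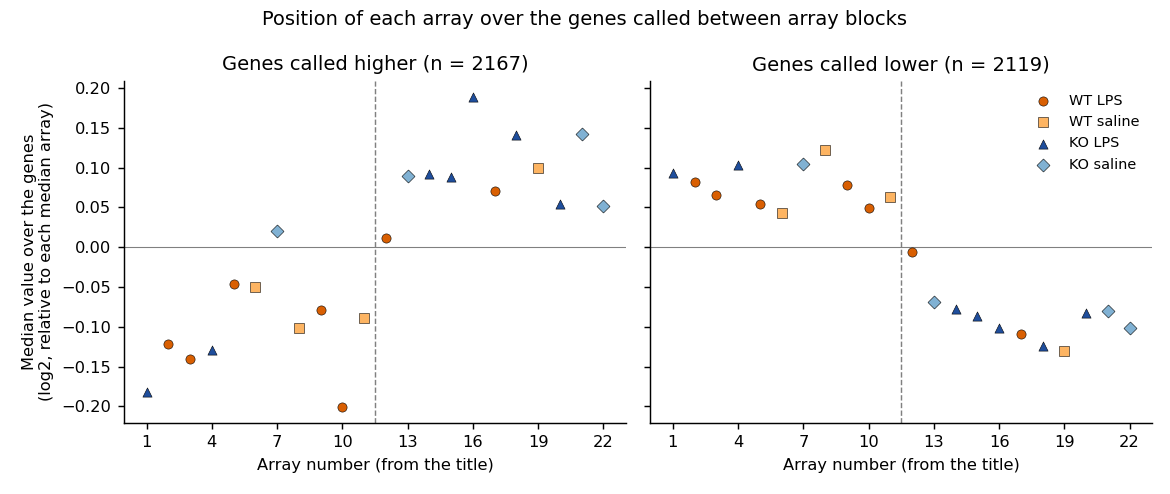
Median value (log2, relative to the median array) over the genes called higher (left, 2167 genes) and called lower (right, 2119 genes) on each of the 22 arrays, plotted by array number; symbols give the group and the dashed line separates arrays 1 to 11 from 12 to 22. Array 12 lies near 0 in both panels (0.01 and -0.01) and array 7 lies near 0 on the left only (0.02).

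A slope with array number inside the blocks was called in 0 of 19935 genes (0%) by limma, with 858 at an unadjusted p under 0.05 and a smallest adjusted p of 0.998. The smallest p-values were those of Pomp, which encodes a proteasome maturation protein, at -0.02 per array number, and of Aoc3, a vascular amine oxidase gene, at 0.03. A straight line over all numbers in place of the 2 blocks called 3313 genes, of which 3073 were also called between blocks.

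Genes of protein degradation were higher in the later block. Of 39 measured proteasome subunit genes, 17 rose and 2 fell, with a median block difference of 0.08 against -0.01 over all genes tested and shares of 10.9% higher and 10.6% lower. These shares depend on level: 29 of the 39 were at a level of 8 or more, where 26.4% of all genes rose and 17.3% fell. Psmd14, the deubiquitinase subunit of the regulatory particle, ran from -0.32 to 0.03 (median -0.13) on the earlier arrays and from -0.04 to 0.59 (median 0.47) on the later arrays. Array 12 was the only later array below 0.35, so the blocks overlapped through that array alone. The difference was 0.50 ± 0.06 (SE, adjusted p = 8.22e-06), and it was positive in each group: 0.31 in WT LPS, 0.66 in KO LPS, 0.58 in WT saline and 0.47 in KO saline. Psmd10, the regulatory particle chaperone also called gankyrin, ran from -0.37 to -0.04 (median -0.20) and from 0.04 to 0.44 (median 0.29), with no overlap, and differed by 0.44 ± 0.05 (adjusted p = 9.8e-06). Psma4 and Psma1, which encode alpha ring subunits of the core particle, differed by 0.29 ± 0.05 and 0.28 ± 0.05. The mean of the list was between -0.15 and 0.03 in the earlier block and between -0.07 and 0.14 in the later block, where array 12 was lowest and the other 10 arrays started at 0.04. After removal of arrays 1 and 4, 9 proteasome genes rose and 2 fell.

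Nuclear genes of oxidative phosphorylation were also higher in the later block. Of 81 measured, 28 rose (34.6%) and 2 fell, with a median difference of 0.09. A level of 8 or more was reached by 57 of the 81, and 26.4% of all genes at that level rose. Cox6c, a subunit of cytochrome c oxidase, ran from -0.24 to 0.04 (median -0.15) on the earlier arrays and from -0.13 to 0.30 (median 0.24) on the later arrays, and rose by 0.29 ± 0.05 (adjusted p = 0.000182). Ndufab1, the acyl carrier subunit of complex I, ran from -0.43 to 0.05 (median -0.21) and from -0.26 to 0.59 (median 0.35), and rose by 0.43 ± 0.08 (adjusted p = 0.000478). For both genes 10 of the 11 later arrays lay above every earlier array. The mitochondrial ribosome moved with them: 23 of its 77 measured genes rose (29.9%) and 4 fell, beside 10.9% and 10.6% of all genes. Mrps14 led at 0.39 ± 0.06, with Mrpl38 in the opposite direction at -0.21 ± 0.04. Without the 6 arrays with high Ttr or Gh, 16 of the 77 rose and 2 fell. With arrays 1 and 4 left out, 5 of the 81 oxidative phosphorylation genes rose and 3 fell, and 6 of the 77 mitochondrial ribosomal genes rose and 2 fell.

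Cytosolic ribosomal protein genes split. Of 58 measured, 14 rose (24.1%) and 7 fell (12.1%), with a median of 0.05. Among all genes at a level of 8 or more, a class that held 40 of the 58, 26.4% rose and 17.3% fell. The share of the list that rose was thus near that of its level class. Rpl36, a protein of the large subunit, ran from 0.10 to 0.39 (median 0.23) on the earlier arrays and from -0.31 to -0.07 (median -0.17) on the later arrays. The blocks did not overlap, and the difference of -0.43 ± 0.04 had an adjusted p of 3.7e-07. Rps15, a protein of the small subunit, fell by 0.23 ± 0.04 on the log2 scale. Ribosomal protein genes have many processed copies in the genome, whose signal on an array cannot be told apart from that of the gene. In a fit without arrays 1 and 4, 0 of the 58 rose and 5 fell.

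Splicing factors were another list with more genes higher than lower. Of 46 measured, 22 rose (47.8%) and 5 fell, with a median difference of 0.10. A level of 8 or more was reached by 29 of the 46, and 26.4% of all genes at that level rose. Hnrnpu, a nuclear RNA-binding protein that binds chromatin and pre-mRNA, ran from -0.24 to -0.04 (median -0.14) on the earlier arrays and from 0.04 to 0.12 (median 0.07) on the later arrays. Its blocks did not overlap, array 12 included, although the difference was only 0.20 ± 0.03 (adjusted p = 4.9e-05). Hnrnph1, which binds G-rich RNA, also had no overlap and rose by 0.23 ± 0.04. Snrpd3, a core protein of the small nuclear ribonucleoproteins, rose by 0.29 ± 0.05, with array 12 again inside the earlier range. Within the 11 WT arrays 15 of the 46 genes were called higher and 0 lower, and within the 11 KO arrays 11 and 2. Both counts used the spread of all arrays. Without arrays 1 and 4, 12 rose and 2 fell.

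The promoters of Psmd14 and Hnrnpu are shown as those of 2 broadly expressed genes that rose, for the GC box (GGGCGG) that Sp1 factors bind. Both windows are from RefSeq on GRCm38.p6 and cover 250 bases before to 50 after the annotated start, with each GGGCGG, read on both strands (GGGCGG or CCGCCC), in capitals; overlapping matches run together. The Psmd14 window is chr2:61711444-61711743 on the plus strand and the Hnrnpu window is chr1:178337766-178338065 on the minus strand.
Psmd14: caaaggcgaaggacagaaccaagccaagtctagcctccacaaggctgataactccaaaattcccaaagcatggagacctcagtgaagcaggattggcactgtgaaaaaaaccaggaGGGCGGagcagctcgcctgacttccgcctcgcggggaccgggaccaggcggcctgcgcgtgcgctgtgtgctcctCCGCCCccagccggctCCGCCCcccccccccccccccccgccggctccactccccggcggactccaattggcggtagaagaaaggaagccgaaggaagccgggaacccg
Hnrnpu: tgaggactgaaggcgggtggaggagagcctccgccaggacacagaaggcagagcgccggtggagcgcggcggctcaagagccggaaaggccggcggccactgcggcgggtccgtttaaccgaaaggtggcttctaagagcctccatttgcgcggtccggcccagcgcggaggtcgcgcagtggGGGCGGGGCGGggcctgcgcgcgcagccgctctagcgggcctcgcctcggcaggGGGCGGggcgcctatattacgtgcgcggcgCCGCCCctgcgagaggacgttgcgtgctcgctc
The Psmd14 window held 3 matches at 65.3% GC and the Hnrnpu window 4 matches at 72.7% GC. GGGCGG occurred in 35.7% of all 32851 promoter windows of the table. The shares that follow are of genes, with a match in any window of the gene, and are not on the same footing. Such matches are shared widely: among protein-coding genes at a level of 8 or more that have a window, 72.4% of those called higher, 76.9% of those called lower and 70.9% of those not called held it.

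More genes of transcription and RNA processing rose than fell. Among 344 genes named Zfp, most of them zinc-finger transcription factors, 82 rose and 29 fell (23.8% and 8.43%). Over all genes 10.9% rose and 10.6% fell. Zfp942 ran from -0.28 to -0.03 on the earlier arrays and from 0.03 to 0.49 on the later arrays, Zfp882 from -0.41 to -0.03 and from 0.03 to 0.28, and Zfp40 from -0.24 to -0.04 and from 0.04 to 0.26. None of these 3 overlapped between blocks, and their differences were 0.37 ± 0.05, 0.31 ± 0.04 and 0.28 ± 0.04. Zfp358 had no overlap in the opposite direction, at -0.28 ± 0.03. Of 54 small nucleolar RNA genes, whose products guide the modification of ribosomal RNA, 11 rose (20.4%) and 3 fell (5.56%). Snord87 had no overlap (0.27 ± 0.05), and Snora75 and Snord47 rose by 0.39 ± 0.07 and 0.34 ± 0.06. With arrays 1 and 4 left out, the counts were 28 higher and 13 lower for the Zfp genes and 4 and 2 for the small nucleolar RNAs.

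Of 13 heat-shock chaperone genes, 7 rose and 2 fell, with a median of 0.09. Over all genes 10.9% rose and 10.6% fell. A level of 8 or more was reached by 8 of the 13, and at that level 26.4% of all genes rose and 17.3% fell. Hspd1, the mitochondrial chaperonin, ran from -0.46 to 0.04 (median -0.19) on the earlier arrays and from 0.03 to 0.28 (median 0.12) on the later arrays, and rose by 0.34 ± 0.05 (adjusted p = 7.7e-05). Chordc1, a co-chaperone of HSP90, rose by 0.32 ± 0.06. Clustered protocadherins, the cell-surface proteins that give neurons an individual identity, rose in 7 of 22 genes (31.8%) and fell in 0. Pcdhb20 led at 0.25 ± 0.05. All 22 were at a level below 8, where 7.16% of all genes rose. In a fit without arrays 1 and 4, 4 chaperones and 1 protocadherin rose, and without the 6 arrays with high Ttr or Gh 7 chaperones and 3 protocadherins did. Cholesterol synthesis genes rose in 5 of 15 (33.3%) and fell in 2 (13.3%), and 9 of the 15 were at a level of 8 or more. Of the 14 genes of the unfolded protein response 1 rose (7.14%), a share below that of all genes.

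**Figure D2:**
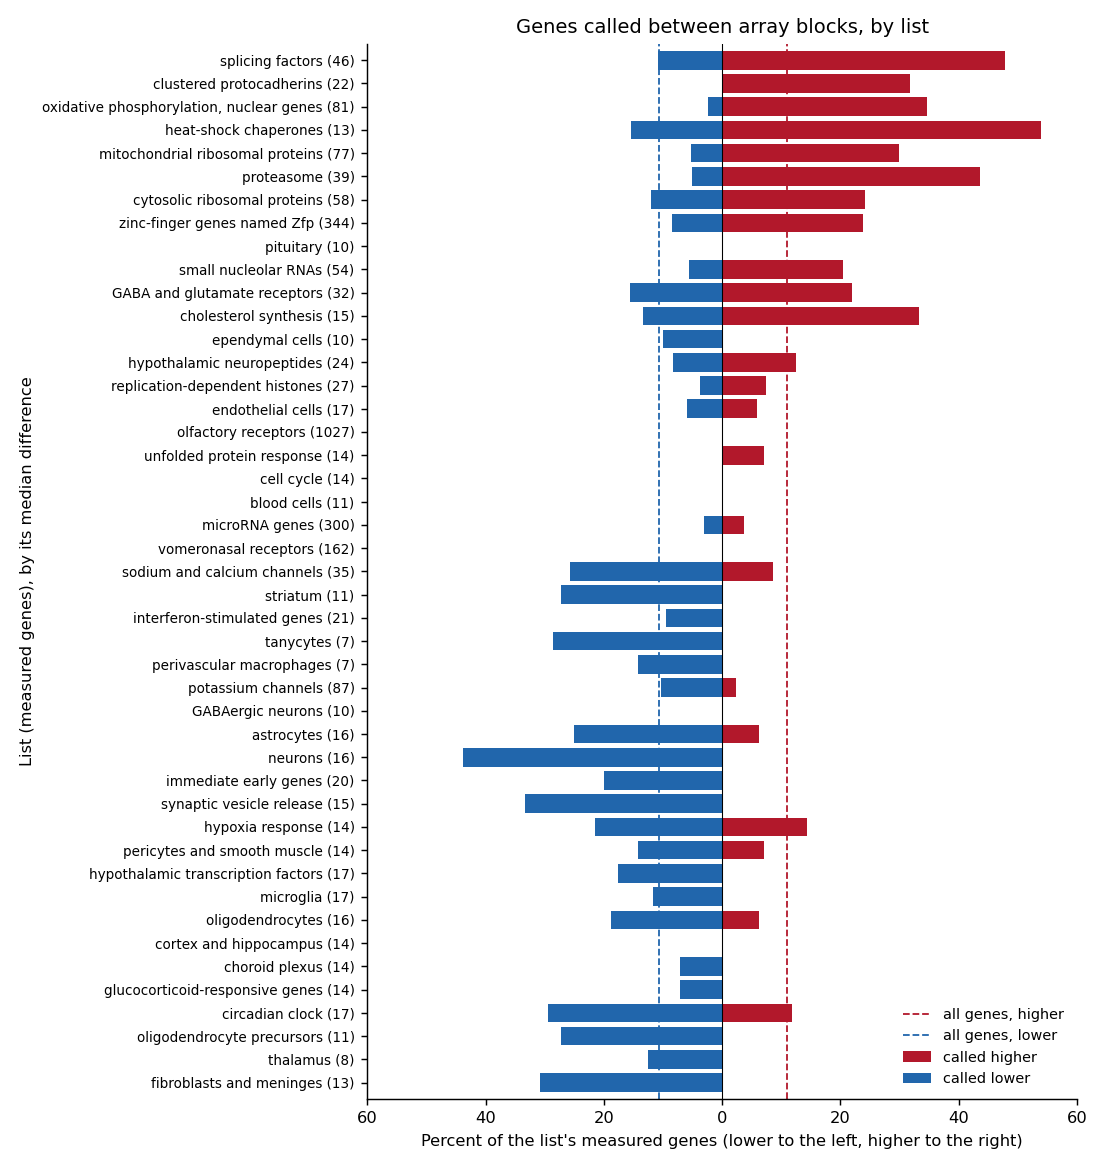
Percent of the measured genes of each list called higher (red, to the right) or lower (blue, to the left) in arrays 12 to 22, with the number measured in brackets, for lists with 7 or more measured genes ordered by their median difference. Dashed lines give the shares over all 19935 genes, 10.9% and 10.6%. For genes at a level of 8 or more these shares were 26.4% and 17.3%, and lists differ in how many of their genes are at that level. Splicing factors (22 of 46), proteasome (17 of 39) and heat-shock chaperones (7 of 13) reach furthest right, and neurons (7 of 16) furthest left.

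The largest single increases were of mixed function; the largest difference of all, a decrease with a size of 0.82, belonged to a gene with a provisional name. Rny1, a small noncoding Y RNA that binds the Ro60 protein, had the largest called increase at 0.73 ± 0.20 (adjusted p = 0.00957), from -0.78 to 0.17 (median -0.39) on the earlier arrays and from -1.02 to 1.12 (median 0.69) on the later arrays. Its lowest value of all was on array 12. Fabp7, the fatty acid binding protein of astrocytes and glial precursors, ran from -0.44 to 0.02 (median -0.17) and from -0.17 to 0.92 (median 0.59), and rose by 0.68 ± 0.09 (adjusted p = 3.27e-05). Array 12 was at -0.17 for Fabp7 and the next later array at 0.42, so the later block divided into this array and the rest. Rheb, the small GTPase that activates mTORC1, and Rida, a mitochondrial and cytosolic deaminase, rose by 0.52 ± 0.06 and 0.52 ± 0.07. Slc5a7, the choline transporter of cholinergic neurons, rose by 0.47 ± 0.13, and 3 of its 11 later values lay above the earlier range. Zdhhc17, a palmitoyltransferase, rose by 0.46 ± 0.05.

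Of the 12 largest increases 5 were X-linked by the RefSeq table: Arxes2, Bex2, Mir325, C1galt1c1 and Psmd10. C1galt1c1, the chaperone of the enzyme that extends O-glycans, ran from -0.47 to -0.06 (median -0.29) and from 0.06 to 0.38 (median 0.22), without overlap, and rose by 0.47 ± 0.05 (adjusted p = 6.29e-06). Bex2, a small protein of neurons, rose by 0.53 ± 0.09, and Arxes2, a signal peptidase-like protein, by 0.57 ± 0.06. Over the whole X chromosome 124 of 739 genes rose (16.8%) and 34 fell (4.60%). Among protein-coding genes at a level of 8 or more, 56 of the 143 X-linked genes rose and 10 fell, against 944 higher and 617 lower of all 3557. Chromosome 13 was close to the X (124 of 731 genes higher and 39 lower), and chromosome 7 stood at the other end (5.54% higher, 14.3% lower). All mice were male, per the labels.

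The largest decreases held secreted and matrix proteins next to neuronal ones. Wbp2, a transcription coactivator, ran from 0.01 to 0.20 (median 0.13) on the earlier arrays and from -0.60 to -0.01 (median -0.53) on the later arrays. Arrays 13 to 22 all lay between -0.60 and -0.46 and array 12 at -0.01, next to the earlier block. The difference was -0.58 ± 0.06 (adjusted p = 1.55e-06). Pcsk1n, the proSAAS inhibitor of a prohormone convertase, ran from 0.01 to 0.49 (median 0.38) and from -0.22 to -0.01 (median -0.13), without overlap, and fell by 0.48 ± 0.05 on the log2 scale. Cbarp, a regulator of voltage-gated calcium channels, fell by 0.50 ± 0.06, Fbxl16, a neuronal F-box protein, by 0.45 ± 0.07 and Agpat1, an enzyme of phospholipid synthesis, by 0.45 ± 0.06. Rmrp, the RNA of the endoribonuclease MRP, fell by 0.50 ± 0.07, with 5 later arrays below the earlier range.

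**Figure D3:**
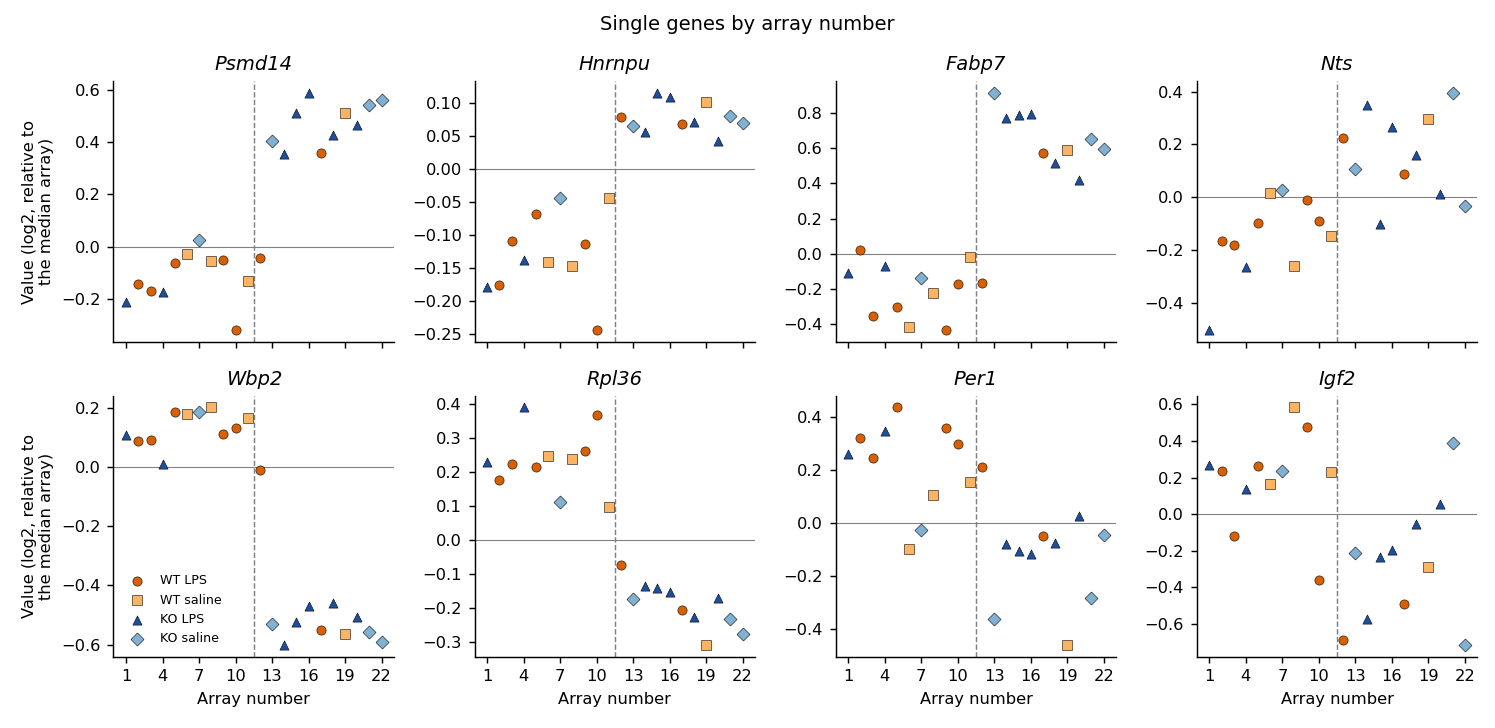
Values (log2, relative to the median array) of 8 genes on each of the 22 arrays by array number, symbols for the 4 groups and a dashed line between the blocks. Wbp2, Psmd14 and Fabp7 change between arrays 12 and 13 (Wbp2 is at -0.01 on array 12 and -0.53 on array 13), Hnrnpu and Rpl36 separate at the block border, and Nts, Per1 and Igf2 overlap between blocks.

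All called markers of neurons were lower in the later block. Of 16 measured, 7 fell (43.8%, beside 10.6% of all genes) and 0 rose, while 6 had a positive difference. A level of 8 or more was reached by 14 of the 16, and 17.3% of all genes at that level fell. In a tissue sample fewer cells of a type and less RNA per cell cannot be told apart. Tubb3, the neuronal beta-tubulin, ran from -0.03 to 0.38 (median 0.16) on the earlier arrays and from -0.44 to 0.03 (median -0.17) on the later arrays, and 10 of the 11 later arrays lay below every earlier one. It fell by 0.36 ± 0.05 on the log2 scale (adjusted p = 8.2e-05). Thy1, a surface protein of neurons, fell by 0.24 ± 0.04. The median over the list was only -0.05, with -0.02 after LPS and -0.15 after saline. The saline value rests on a single later WT array and a single earlier KO array. The range of the list mean overlapped, from -0.05 to 0.11 in the earlier block and from -0.17 to 0.04 in the later. Genes of synaptic vesicle release fell in 5 of 15 (33.3%) and rose in 0, and 11 of the 15 were at a level of 8 or more. Bsn, the scaffold Bassoon of the active zone, ran from -0.04 to 0.23 (median 0.15) and from -0.41 to 0.04 (median -0.16) and fell by 0.28 ± 0.05, and Syn1, which tethers synaptic vesicles, fell by 0.19 ± 0.04. After removal of arrays 1 and 4, 6 neuronal markers and 5 release genes fell and 0 rose.

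Receptor and channel genes moved in both directions. Of 32 GABA and glutamate receptor genes 7 rose and 5 fell (21.9% and 15.6%), beside 10.9% and 10.6% of all genes. A level of 8 or more was reached by 16 of the 32, and at that level 26.4% of all genes rose and 17.3% fell. Gabrg1 and Gabrb2, subunits of the GABA-A receptor, rose by 0.39 ± 0.07 and 0.33 ± 0.06, and Gria3, an X-linked subunit of the AMPA receptor, by 0.22 ± 0.04. Grik5, a kainate receptor subunit, ran from -0.01 to 0.31 (median 0.14) on the earlier arrays and from -0.44 to 0.05 (median -0.28) on the later arrays and fell by 0.37 ± 0.06 (adjusted p = 8.3e-05). Of 35 sodium and calcium channel genes 3 rose (8.57%) and 9 fell (25.7%), and 16 of the 35 were at a level of 8 or more. The sodium channel genes Scn3a and Scn2a rose by 0.33 ± 0.06 and 0.23 ± 0.04. Cacnb1, a calcium channel beta subunit, fell by 0.23 ± 0.05 with no overlap between blocks. Of 87 potassium channel genes 2 rose and 9 fell (2.30% and 10.3%), a lower share near that of all genes. Kcnh2, the ERG channel, fell by 0.25 ± 0.04. Without arrays 1 and 4, 3 receptor genes rose and 2 fell, 2 sodium or calcium channel genes rose and 3 fell, and 0 potassium channel genes rose and 4 fell.

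Hypothalamic neuropeptides showed no common direction, with 3 of 24 higher, 2 lower and a median of 0.01. The shares of 12.5% and 8.33% are near the 10.9% and 10.6% of all genes. Nts, neurotensin, ran from -0.51 to 0.03 (median -0.15) on the earlier arrays and from -0.10 to 0.39 (median 0.16) on the later arrays. The blocks overlapped in 3 of the later arrays, and it rose by 0.35 ± 0.07 (adjusted p = 0.000693). Pmch, melanin-concentrating hormone of the lateral hypothalamus, rose by 0.25 ± 0.08 (adjusted p = 0.0395), and Crh, corticotropin-releasing hormone, by 0.14 ± 0.05 (adjusted p = 0.0454). Sst, somatostatin, fell by 0.23 ± 0.08 on the log2 scale (adjusted p = 0.0271). In a fit without arrays 1 and 4, 1 neuropeptide gene rose and 0 fell, and without the 6 arrays with high Ttr or Gh 2 rose and 0 fell. Markers of neighbouring regions were called by limma in 0 of 14 genes for cortex and hippocampus (2 at an unadjusted p under 0.05), 1 of 8 for thalamus and 3 of 11 for striatum, all lower. The lower shares were 12.5% for thalamus and 27.3% for striatum, beside 10.6% of all genes. All 8 thalamic genes had a negative difference, with a median of -0.18, while the mean of that list ran from -0.57 to 0.24 on the earlier arrays and from -0.63 to 0.19 on the later arrays. With arrays 1 and 4 left out, 0 thalamic genes and 1 striatal gene fell.

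Astrocyte markers fell in 4 of 16 genes (25%) and rose in 1. Most astrocyte markers (15 of 16) and oligodendrocyte markers (11 of 16) were at a level of 8 or more, where 17.3% of all genes fell. Atp1b2, a sodium pump subunit of astrocytes, ran from 0.00 to 0.20 (median 0.13) on the earlier arrays and from -0.18 to 0.00 (median -0.13) on the later arrays; its blocks did not overlap, and it fell by 0.27 ± 0.03 on the log2 scale (adjusted p = 8.22e-06). Fgfr3 and Clu fell by 0.29 ± 0.03 and 0.17 ± 0.03, while the water channel gene Aqp4 rose by 0.23 ± 0.05. Fabp7 was no member of this list and rose. Oligodendrocyte markers fell in 3 of 16 and rose in 1: the myelin gene Mobp fell by 0.27 ± 0.07, the lineage factor gene Sox10 by 0.21 ± 0.05, and Aspa rose by 0.26 ± 0.08. The precursor marker Cspg4 fell by 0.21 ± 0.05, and 2 further precursor genes of 11 fell (27.3% in all, beside 10.6% of all genes). Microglial markers fell in 2 of 17, both of them complement genes, C1qc by 0.15 ± 0.04 and C1qb by 0.17 ± 0.06. The share of 11.8% is near the 10.6% of all genes. After removal of arrays 1 and 4, 4 astrocyte, 2 oligodendrocyte, 0 precursor and 1 microglial genes fell and 0 genes of these lists rose.

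Connective tissue markers had the largest median difference in size of the cell type lists. Of 13 markers of fibroblasts and meninges 4 fell (30.8%, beside 10.6% of all genes) and 0 rose, with a median of -0.26. All 13 were at a level below 8, where 9.16% of all genes fell. Igf2, an insulin-like growth factor made by the meninges, ran from -0.36 to 0.58 (median 0.24) on the earlier arrays and from -0.72 to 0.39 (median -0.24) on the later arrays, and fell by 0.54 ± 0.12 (adjusted p = 0.00311). Fn1, fibronectin, fell by 0.47 ± 0.13, Bgn, biglycan, by 0.35 ± 0.08 and Col1a2, a chain of type I collagen, by 0.21 ± 0.07. Matrix and secreted genes outside the list were among the largest decreases: Fmod, fibromodulin, fell by 0.60 ± 0.14, Aebp1 by 0.46 ± 0.08 and Serping1, the C1 inhibitor, by 0.53 ± 0.17. Slc13a4, a sulfate transporter of choroid plexus and meninges, was also among them and fell by 0.48 ± 0.12. The blocks overlapped in each of these genes. The mean of the list ran from -0.32 to 0.32 (median 0.17) in the earlier block and from -0.48 to 0.49 (median -0.15) in the later, so that the highest array of all, KO saline array 21, and the lowest, KO saline array 22, were both in the later block. After removal of arrays 1 and 4, 2 of the 13 fell.

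Vascular lists held few calls. Of 14 markers of pericytes and smooth muscle 2 fell, Pdgfrb by 0.28 ± 0.05 and Anpep by 0.17 ± 0.04, and Rgs5 rose by 0.16 ± 0.05. The lower share of 14.3% is near the 10.6% of all genes. Of 17 endothelial markers Tie1 fell by 0.13 ± 0.03 and Slco1c1 rose by 0.20 ± 0.06, with a list median of 0.00. Each is 5.88% of the list, below the share of all genes. Of 7 markers of tanycytes, the glia that line the third ventricle, 2 fell (28.6%, beside 10.6% of all genes): Vim, an intermediate filament gene of many cell types, by 0.34 ± 0.10 and Gpr50, a melatonin receptor relative, by 0.23 ± 0.08. In a fit without arrays 1 and 4, 2 pericyte or smooth muscle genes fell, and 0 endothelial or tanycyte genes were called. Of the 14 choroid plexus markers Slc13a4 alone was called. Pituitary (10 genes), blood cell (11 genes), GABAergic neuron (10 genes) and cell cycle (14 genes) lists held 0 calls each in limma, with 0, 0, 1 and 1 genes at an unadjusted p under 0.05. Without the 6 arrays with high Ttr or Gh, proteasome had 15 genes higher and 2 lower, oxidative phosphorylation 23 and 1, splicing factors 19 and 3, neurons 0 and 7, and fibroblasts and meninges 0 and 3.

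**Figure D4:**
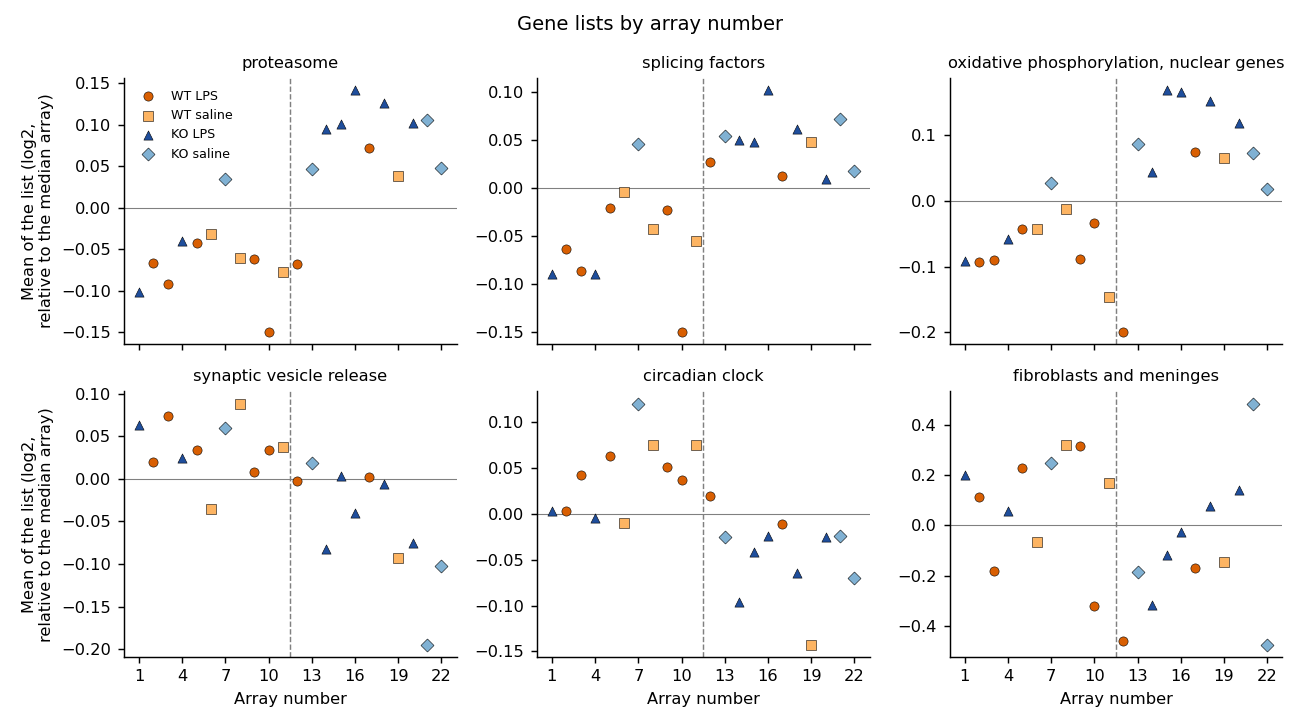
Mean value (log2, relative to the median array) over the measured genes of 6 lists on each of the 22 arrays by array number, with symbols for the 4 groups and a dashed line between the blocks. Proteasome and oxidative phosphorylation are low on array 12 (proteasome at -0.07) and higher on arrays 13 to 22, and the list of fibroblasts and meninges runs from -0.48 to 0.49 inside the later block alone.

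Genes of the circadian clock were called lower in 5 of 17 cases (29.4%, beside 10.6% of all genes). A level of 8 or more was reached by 8 of the 17, and 17.3% of all genes at that level fell. Another 2 rose (11.8%, near the 10.9% of all genes) and 10 were not called, with a median of -0.10. The time of day at which mice were killed is not stated in the labels used here. Per1, a light-responsive repressor of the clock that glucocorticoids also induce, ran from -0.10 to 0.44 (median 0.26) on the earlier arrays and from -0.46 to 0.21 (median -0.08) on the later arrays. It fell by 0.33 ± 0.05 on the log2 scale (adjusted p = 9.7e-05), and 5 later arrays lay below all earlier ones. Nr1d1, the nuclear receptor REV-ERB alpha, ran from -0.09 to 0.44 (median 0.09) and from -0.37 to 0.01 (median -0.14) and fell by 0.29 ± 0.05 (adjusted p = 0.000326). Tef and Per2 fell by 0.17 ± 0.04 and 0.12 ± 0.04. Differences of these 4 genes were negative in all 4 groups, from -0.04 for Per2 in WT LPS to -0.51 for Per1 in WT saline. With arrays 1 and 4 left out, 5 clock genes fell and 0 rose, and the counts were the same without the 6 arrays with high Ttr or Gh.

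The E-box CACGTG is the sequence that the CLOCK and BMAL1 factors bind, and the promoters of Per1 and Tef are shown because both genes fell and both windows hold it. The windows are from RefSeq on GRCm38.p6, cover 250 bases before to 50 after a start, and have CACGTG, which reads the same on both strands, in capitals; for each gene, which has 2 windows, the one with the lower coordinate is printed. Both windows of Tef hold CACGTG, but only 1 of the 2 windows of Per1 does. Per1 lies at chr11:69098699-69098998 and Tef at chr15:81802423-81802722, both on the plus strand.
Per1: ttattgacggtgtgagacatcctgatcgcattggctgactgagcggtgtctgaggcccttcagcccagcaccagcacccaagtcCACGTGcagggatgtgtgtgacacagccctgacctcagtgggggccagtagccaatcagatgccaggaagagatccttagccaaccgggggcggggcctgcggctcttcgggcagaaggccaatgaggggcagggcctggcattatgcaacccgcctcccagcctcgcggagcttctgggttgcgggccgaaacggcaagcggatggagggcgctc
Tef: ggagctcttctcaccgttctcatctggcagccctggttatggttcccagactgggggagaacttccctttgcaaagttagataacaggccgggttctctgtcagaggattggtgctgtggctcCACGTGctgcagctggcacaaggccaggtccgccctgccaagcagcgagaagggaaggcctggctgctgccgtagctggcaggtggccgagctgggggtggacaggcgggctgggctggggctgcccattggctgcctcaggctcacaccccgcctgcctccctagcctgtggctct
Each window holds 1 match, and 7.15% of all 32851 windows of that length held at least 1. Of the 17 clock genes 15 had a window and 5 of these held CACGTG, including 2 of the 4 genes with a window that fell. Counted by gene, with a match in any window, 12.7% of protein-coding genes called higher at a level of 8 or more held it. The shares were 11.1% of those called lower and 12.7% of those not called. A match is a description of the letters and not a site of binding.

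Calls among genes that respond within minutes to hours of a stimulus were all lower. Of 20 immediate early genes 4 fell (20%, beside 10.6% of all genes) and 0 rose, among them Dusp1, a MAP kinase phosphatase gene, by 0.28 ± 0.07 and Junb, an AP-1 subunit gene, by 0.15 ± 0.05. Of 14 glucocorticoid-responsive genes only Per1 was called. Of 21 interferon-stimulated genes 2 fell (9.52%, near the 10.6% of all genes) and 0 rose. With arrays 1 and 4 left out, 2 immediate early and 0 interferon-stimulated genes fell. The 4 inflammatory transcripts named for the LPS response were not called between blocks: the differences were -0.37 ± 0.14 (adjusted p = 0.0602) for Lcn2, the iron-binding lipocalin, -0.17 ± 0.14 (adjusted p = 0.459) for the chemokine gene Cxcl10, -0.09 ± 0.17 (adjusted p = 0.798) for Ptgs2, the cyclooxygenase that makes fever-inducing prostaglandin, and 0.04 ± 0.06 (adjusted p = 0.746) for Il6. Lcn2 lay close to the threshold: its adjusted p in limma was 0.0447 without array 7, 0.0345 without array 10, 0.0405 without array 17, 0.0205 without array 20 and 0.033 with the genes of lowest variance left out, and up to 0.533 under other alternatives.

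Of 300 microRNA genes 11 were higher (3.67%) and 9 lower, beside 10.9% and 10.6% of all genes, and 289 of the 300 were at a level below 8. The mature sequences of the 4 with the smallest p are printed from RefSeq (GRCm38.p6), with bases 2 to 8, the seed that pairs with targets, in capitals.
miR-325-5p: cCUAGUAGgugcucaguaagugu
miR-325-3p: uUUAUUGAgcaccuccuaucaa
miR-128-1-5p: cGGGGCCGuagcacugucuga
miR-128-3p: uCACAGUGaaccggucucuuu
miR-218-5p: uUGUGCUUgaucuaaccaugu
miR-218-1-3p: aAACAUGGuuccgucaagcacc
miR-300-5p: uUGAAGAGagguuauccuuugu
miR-300-3p: uAUGCAAGggcaagcucucuuc
No 2 of these 8 arms share a seed. Whether the probe sets detect the precursor or a mature arm is not stated in the labels used here. Mir325, on the X chromosome, ran from -0.42 to 0.01 (median -0.36) on the earlier arrays and from -0.01 to 0.51 (median 0.29) on the later arrays and rose by 0.48 ± 0.07 (adjusted p = 4.64e-05). Mir128-1 (chromosome 1), whose product is abundant in neurons, rose by 0.32 ± 0.06, Mir300 (chromosome 12) by 0.24 ± 0.05 and Mir218-1 (chromosome 5) by 0.23 ± 0.05. In each of the 4 the difference was positive in all 4 groups. Without arrays 1 and 4, 5 microRNA genes were higher and 0 lower.

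Called genes differed from the rest in level. Of the 3600 genes at a level of 8 or more, 26.4% rose and 17.3% fell, against 7.16% and 9.16% of the 16123 genes below 8. The 1027 olfactory receptor genes, of which 1 was at a level of 8 or more, held 0 higher and 1 lower calls. Median gene length in the RefSeq table was 28.3 kb for genes called higher, 20.9 kb for genes called lower and 17.7 kb for all tested. This order did not hold within protein-coding genes at a level of 8 or more. There the medians were 30.7 kb for genes called higher, 22.2 kb for genes called lower and 34.3 kb for those not called. Within protein-coding genes at a level of 8 or more the promoter GC content was almost the same, with medians of 61.7% for genes called higher, 63.3% for genes called lower and 61.7% for those not called. At the low end it differed: of 211 such genes with a promoter at 40 to 50% GC, 30.8% rose and 9.00% fell, against 24.7% and 19.7% of the 543 at 70% or more.

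The 2 genotypes, which share no array, gave similar differences. Each difference gives LPS and saline equal weight. The WT difference thus leans on the single later WT saline array, and the KO difference on the single earlier KO saline array. Both took their spread from all arrays. Within WT, 546 genes were higher (2.74%) and 622 lower (3.12%), and within KO 624 were higher (3.13%) and 992 lower (4.98%). Of the 1168 genes called within WT, 1160 had the same sign within KO, and of the 1616 called within KO, 1594 had the same sign within WT. A total of 720 were called in both in the same direction and 0 in opposite directions. Because the spread was shared, these are not separate tests. Fitted on their own, WT arrays gave 169 genes higher and 111 lower, and KO arrays 879 and 1001. Across all 19935 genes, which are not independent replicates, the 2 sets of differences had a Pearson r of 0.728. The interaction of block and genotype was called in 0 genes (0%) by limma, with 441 at an unadjusted p under 0.05. The smallest p-values included Rag1, which was higher by 0.20 within WT and lower by 0.14 within KO, and the microglial receptor gene P2ry12, lower by 0.12 within WT and higher by 0.19 within KO; both had an adjusted p of 0.9997.

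**Figure D5:**
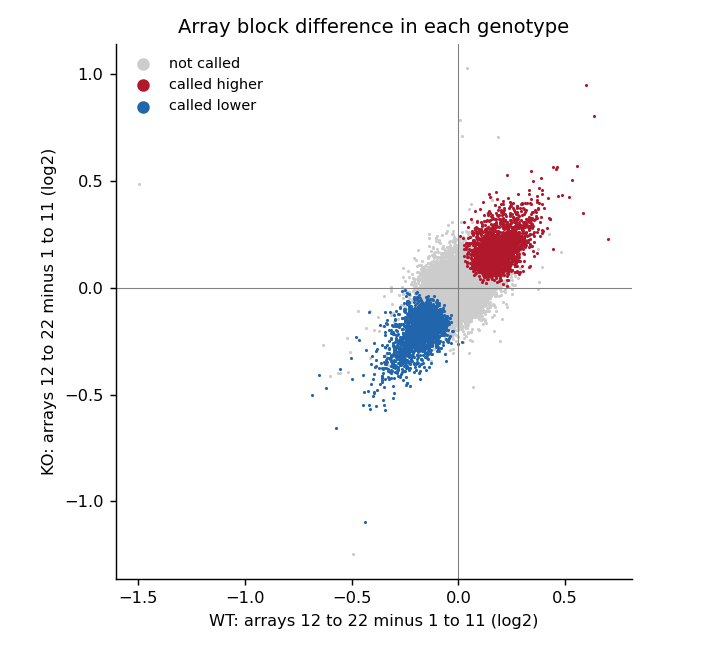
Block difference (log2, arrays 12 to 22 minus 1 to 11) within the 11 WT arrays (horizontal axis) and within the 11 KO arrays (vertical axis), 1 point for each of 19935 genes, coloured by the call over all arrays. Genes called over all arrays fall along the diagonal by that choice; over all genes Pearson r was 0.728.

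LPS and saline arrays likewise share no array. After LPS 2106 genes were higher (10.6%) and 1428 lower (7.16%), and after saline 141 were higher (0.707%) and 707 lower (3.55%). The saline difference rests on 1 WT array in the later block and 1 KO array in the earlier block, arrays 19 and 7. Of the 848 genes called after saline 820 had the same sign after LPS. In the other direction, 3130 of the 3534 genes called after LPS had the same sign after saline. A total of 551 were called in both in the same direction and 0 in opposite directions, and r across genes was 0.530. Here too the spread came from all arrays. The interaction of block and treatment was called in 0 genes (0%) by limma, with 1755 at an unadjusted p under 0.05 and a smallest adjusted p of 0.494. Hexim1, an inhibitor of the transcription elongation factor P-TEFb, differed by 0.25 after LPS and -0.08 after saline (interaction 0.33 ± 0.07), and Acot4, a peroxisomal thioesterase gene, by -0.11 and 0.22 (interaction -0.33 ± 0.07).

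The study's own comparison, KO against WT after LPS, was fitted with and without the block, since the genotypes are unequally spread over the blocks. Without a block term 8 genes (0.0401%) differed between KO LPS and WT LPS arrays, and with the block as a term 2 did (0.01%), both of them among the 8. At an unadjusted p under 0.05 the number of genes fell from 2267 to 1030. Abhd1, an alpha/beta hydrolase gene, was higher in KO by 0.46 ± 0.06 without the block and by 0.53 ± 0.05 with it (adjusted p = 0.000537 and 2e-06), and Galnt11, a glycosyltransferase gene, by 0.37 ± 0.06 and 0.30 ± 0.05 (adjusted p = 0.0136 and 0.0227). Lcn2 was lower in KO by -1.04 ± 0.17 without the block and -0.88 ± 0.16 with it, at adjusted p-values of 0.0164 and 0.0722. Tmem252 (-0.67 and -0.61), Tgm2 (-0.48 and -0.39), Map3k8 (-0.43 and -0.42) and Psmb5 (0.28 and 0.26) likewise passed from below 0.05 to 0.0722, and Mrpl2 (0.25 and 0.21) to 0.195. Tgm2 was also called lower between blocks (-0.21 ± 0.06, adjusted p = 0.0194). Of the genes with the largest block differences, Psmd14 went from 0.34 ± 0.13 to 0.13 ± 0.07, Fabp7 from 0.57 ± 0.19 to 0.27 ± 0.11 and Wbp2 from -0.36 ± 0.15 to -0.11 ± 0.07 in the genotype difference, and none of the 3 was called for genotype in either fit. Within the earlier block alone the KO minus WT difference after LPS was 0.50 ± 0.08 for Abhd1, 0.32 ± 0.07 for Galnt11 and -0.74 ± 0.15 for Lcn2, and within the later block alone it was 0.53 ± 0.07, 0.29 ± 0.07 and -0.95 ± 0.28. In these smaller sets limma called 0 genes in either block, with 554 and 1437 genes at an unadjusted p under 0.05. The block term lowered the median residual standard deviation over genes from 0.103 to 0.0936.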

How the data were processed

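The authors deposited log2 values of 28815 probe sets in 1 table, from 22 Affymetrix arrays of biotin-labelled hypothalamic RNA (200 ng). Per the submitters' processing notes the tool was RMA, with its version not given; a genome build is not given in the sources used here. Each probe set was centred on its median (largest remaining median 7.02e-07), so exact levels were not recovered and no filter on dim genes was applied to the tests; a class of level (8 or more, or below) was read from the rounding. Base 2 was taken, not stated: 100% of 619799 values were whole single-precision steps (tolerance 0.06) of numbers from 4 to 8.

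Of the probe sets, 21780 had 1 symbol (21689 matched RefSeq, GRCm38.p6); 1605 with several and 5430 with none were left out. Probe sets of a gene were averaged. limma 3.58.1 in R 4.3.3 fitted 4 groups plus block, or 8 group-by-block means, over all 22 arrays, two-sided, with Benjamini-Hochberg adjustment over 19935 genes; differences are printed ± SE. Fits tested on simulated data were the block difference, the mean of the 4 group differences, the interaction with genotype and the slope. The genotype difference after LPS with the block was also tested. Other contrasts, among them the interaction with treatment, were not. Named were the 12 largest called increases and decreases with 1 sign in all groups (provisional names and olfactory receptors not named), up to 4 called genes of each list by smallest p, the smallest p of each interaction and of the slope, and Il6, Lcn2, Cxcl10 and Ptgs2; genes of the genotype comparison were added after their values were seen. Arrays 1 to 11 and 12 to 22, the gene lists and the rules were chosen with earlier results of these data known. Arrays have no read depth, and their number limits the precision. Protein length was not analysed here, and promoter content over all genes was not compared because 78.1% had a promoter window; genes at a level of 8 or more were used. Alternatives tried were scaling, probe set choice, variance model, coding of the number and leaving out arrays.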

Additional observations from a re-analysis of the deposited data

Results flagged for a closer look

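Single values that lay far from the rest of their group were looked for by Dixon's test in 472 series (117 named genes and the first principal component, each in 4 groups), and 37 values passed it; chance passes about 1 in 20. Of the 37, 29 came from 3 arrays: 12 from array 19, 8 from array 7 and 9 from array 17. Most of these genes were named because they differ between the blocks, and arrays 19 and 7 are each the only array of their block in a group of 4. Values of these arrays that stand apart therefore restate how the genes were chosen, and the rate of 1 in 20 is no measure for them; the same holds for array 17, since array 12, the other later WT LPS array, lay with the earlier arrays in these genes.

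Array 19 is the only WT saline array of the later block. It was the highest of its 4 arrays for Rida (0.28, the others at most -0.21), Psmd14 (0.51), Mir325 (0.29), C1galt1c1 (0.21), Hspd1 (0.16), Zfp942 (0.35), Mir300 (0.28), Hspa5 (0.14) and Rag1 (0.33), and the lowest for Wbp2 (-0.57, the others at least 0.16), Bsn (-0.28) and Fgfr3 (-0.25).

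Array 7 is the only KO saline array of the earlier block. It was the highest of its 4 arrays for Wbp2 (0.19, the others at most -0.53), Pcsk1n (0.33), Nr1d1 (0.44, the others at most 0.00), Tef (0.13) and Ndrg1 (0.13), and the lowest for Mir325 (0.0059), Hnrnpu (-0.043, the others at least 0.07) and Snrpd3 (-0.0034).

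Array 17 is one of 2 WT LPS arrays of the later block; the other, array 12, lay with the 5 earlier WT LPS arrays on the far side of the gap in each case. Array 17 was the highest of 7 for Bex2 (0.52, the others at most -0.18), Psmd14 (0.36), Cox6c (0.25) and Ndufab1 (0.35), and the lowest for Wbp2 (-0.55), Cbarp (-0.56), Mrpl38 (-0.24), Sst (-0.46) and Cspg4 (-0.10).

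Other values were those of KO LPS array 1 for Rag1 (0.35) and Mir300 (-0.42), KO LPS array 4 for Slc5a7 (-0.89, the others at least 0.06), WT saline array 8 for C1qb (0.21) and Map3k8 (-0.093), KO saline array 13 for Hspd1 (0.16), and WT LPS array 10 for Hmx2 (0.24) and Cirbp (-0.49). No difference between the genotypes or between the treatments in the block difference passed the test.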

How the results depend on the processing

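The counts of genes higher (2167) and lower (2119) in the later block stayed within 1.5 times under centring, quantile normalization, the choice of probe set, every probe set, a variance filter, robust variance, array weights, a straight line, no group terms, equal weights for the groups, and without arrays 10 to 13 or the arrays with high Ttr or Gh. Subsets of arrays fitted on their own, with their own spread, gave fewer: 40 higher and 220 lower on saline arrays alone, 169 and 111 on WT arrays alone, 879 and 1001 on KO arrays alone, 1400 lower on LPS arrays alone, and 589 and 1017 without arrays 1 and 4, chosen after seeing the data. Higher genes made up 15.4% of calls on saline arrays, 60.4% on WT arrays and 36.7% without arrays 1 and 4, against 50.6% in all. With each array left out in turn, 1490 (without KO LPS array 1) to 2395 genes were higher and 1565 (without WT saline array 19) to 2302 lower; the interaction with treatment was called in 0 to 1 gene and the interaction with genotype and the slope in 0 genes. Both interactions could not be fitted without array 7 or 19. The genotype difference after LPS was called in 2 (without KO LPS array 18) to 47 genes (without KO LPS array 1) without the block and 1 to 8 (without KO LPS array 20) with it, in 6 genes with array number as a straight line, and in 0 genes on arrays 1 to 11 alone and 0 on arrays 12 to 22 alone (limma, with 554 and 1437 genes at an unadjusted p under 0.05). Of 145 called named genes, 142 kept their direction under all alternatives, 108 stayed past the threshold with any 1 array left out, and 12 stayed past it under every alternative; 124 lost the call on saline arrays alone, 116 on WT arrays, 60 on KO arrays and 53 without arrays 1 and 4. The sign turned for Rgs5 (-0.054) and Hexim1 (-0.081) on saline arrays alone and for Abhd1 (0.10) without group terms. Of genes not called, it turned for Il6 on saline arrays (-0.0092), WT arrays (-0.00018) and without arrays 1 and 4 (-0.016), and for Ptgs2 with a straight line (0.0013), array weights (0.019) and array 12 left out (0.0095, with -0.18 the lowest value when 1 array was left out). The causes were not tested. No paired analysis was possible because the labels give no replicate numbers shared between groups.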

Other observations

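Smaller lists held genes in both directions. Of 14 hypoxia-response genes 2 rose and 3 fell (14.3% and 21.4%), beside 10.9% and 10.6% of all genes. Ndrg1 fell by 0.22 ± 0.05, the vasoactive peptide gene Adm by 0.22 ± 0.06 and Ldha, lactate dehydrogenase A, by 0.12 ± 0.04. P4ha1, a collagen prolyl hydroxylase gene, rose by 0.17 ± 0.04. In the cholesterol list, Hmgcs1, an early enzyme of sterol synthesis, ran from -0.30 to 0.03 (median -0.14) on the earlier arrays and from -0.16 to 0.22 (median 0.12) on the later arrays and rose by 0.20 ± 0.04, while Srebf2, which encodes the transcription factor that drives these enzymes, fell by 0.19 ± 0.03 on the log2 scale. Hspa5, the chaperone BiP of the endoplasmic reticulum, rose by 0.17 ± 0.04. Of 17 hypothalamic transcription factor genes, Lhx1, Barhl1 and Hmx2 fell by 0.13 ± 0.04, 0.14 ± 0.04 and 0.13 ± 0.04 and 0 rose. Those that fell made up 17.65% of the list, beside 10.6% of all genes. Cirbp, whose RNA rises in the cold, differed by 0.14 ± 0.05 and missed the threshold (adjusted p = 0.0506). Without the 6 arrays with high Ttr or Gh, 1 hypothalamic factor rose and 1 fell, 1 hypoxia gene rose and 4 fell, and 3 cholesterol genes rose and 1 fell. With arrays 1 and 4 left out, 0 hypothalamic factors fell, 1 hypoxia gene rose and 1 fell, 1 cholesterol gene rose and 1 fell, and 0 genes of the unfolded protein response were called.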
